A study of Mus musculus with 15 samples.

Results

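Nat8l and 8 enzymes that make or use acetate, N-acetylaspartate and ketone bodies were followed in mouse perigonadal fat. The 9 genes were Nat8l, Aspa, Acss1, Acss2, Acss3, Aacs, Oxct1, Bdh1 and Acat1, taken as the rows of the deposited count matrix whose Entrez ID maps to these symbols. They are 9 of the 35794 Entrez IDs in that matrix, and all 9 passed the filter on low counts. Nat8l was included because its level in these libraries had already been seen to differ between groups, so its values are described without a test. The other 8 were included for their function.

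Poly(A) RNA was sequenced from perigonadal fat pads, the visceral depot beside the gonads, of C57BL/6 mice aged 14 weeks. Weight loss mice, called SWAP in the labels, ate a diet labelled 60% high fat for 5 weeks from 8 weeks of age and then ate chow for 1 week. Obese mice stayed on the high fat diet, and lean mice ate chow. The labels do not give the sex of the mice or a batch, and the design text calls the samples independent without saying whether each came from 1 mouse, so p-values measure the spread between these samples. The libraries numbered 4 for weight loss, 5 for obese and 5 for lean fat. A further weight loss library held 230 counts in all, with none for any of the 9 genes, and was left out.

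N-acetylaspartate is made from aspartate and acetyl-CoA by the enzyme that Nat8l encodes, and aspartoacylase, from Aspa, splits it again into acetate and aspartate. Acetyl-CoA synthetases turn that acetate, or acetate from the blood, back into acetyl-CoA, which adipocytes use to build fatty acids or to acetylate histones. Ketone bodies reach the same pool by separate routes: Bdh1, Oxct1 and Acat1 oxidise them in mitochondria, and Aacs activates acetoacetate in the cytosol for lipid synthesis. Nat8l is known for its activity in neurons and in adipocytes, brown adipocytes included.

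The 14 libraries held 13924770 to 33807887 counts, and 15208 genes were tested. Levels are CPM, each count as a share of its library's total after scaling for composition, with the SD over libraries. Differences are log2 fold changes from the quasi-likelihood test of edgeR with their standard error, and a gene was called when its p, adjusted over all genes tested by the Benjamini-Hochberg method, was under 0.05. The 10 adipocyte markers summed to 35360 to 51220 CPM in weight loss, 33720 to 42840 CPM in obese and 35920 to 50230 CPM in lean libraries, and none of the 10 was at 0. The 10 macrophage markers summed to 544 to 1248 CPM, 853 to 1390 CPM and 409.8 to 897 CPM in the same groups. In these pads of whole tissue, fewer cells of a type and less RNA per cell cannot be told apart. Transcripts of the epididymis, which lies against this depot, were uneven: 23 markers summed to 8.58 to 208 CPM in weight loss, 49.0 to 9160 CPM in obese and 28.0 to 4087 CPM in lean libraries. The sum exceeded 1000 CPM in obese replicates 2, 4 and 5 and lean replicate 1. Fits without those 4 libraries and fits with the epididymal level as a covariate were run beside the main comparisons. This covariate was the mean log2 CPM of the 20 markers that passed the filter, not the sum. By it lean replicate 4, with a sum of 957 CPM, stood at -0.20. Lean replicate 2, with a sum of 28.0 CPM, stood at -0.46. None of the 23 markers was at 0 throughout the obese or the lean group, against 7 in the weight loss group.

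Of the 8 genes chosen by function, 3 were called in obese against lean fat, 1 higher and 2 lower, where 9.71% of all genes tested were called, 5.86% higher and 3.85% lower. By edgeR, 0 of the 8 were called in weight loss against obese fat, against 1.62% of all genes. There 4 of the 8 had an unadjusted p under 0.05, and DESeq2 and limma-voom each called 0. The share of all genes at an unadjusted p under 0.05 is not given here, so such counts have no base rate beside them. Weight loss against lean fat gave 0 called of the 8, against 0.0329% of all genes, with 2 at an unadjusted p under 0.05 and 0 called by DESeq2 or limma-voom. The median log2 fold change of the 8 genes was -0.19 in obese against lean fat, where that of all genes was -0.02. It was -0.02 for the 8 genes and 0.02 for all genes in weight loss against obese fat. For weight loss against lean fat these medians were -0.19 and 0.003. The obese libraries enter the first pair of comparisons and the lean libraries enter the first and last, so the comparisons share samples.

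**Figure D1:**
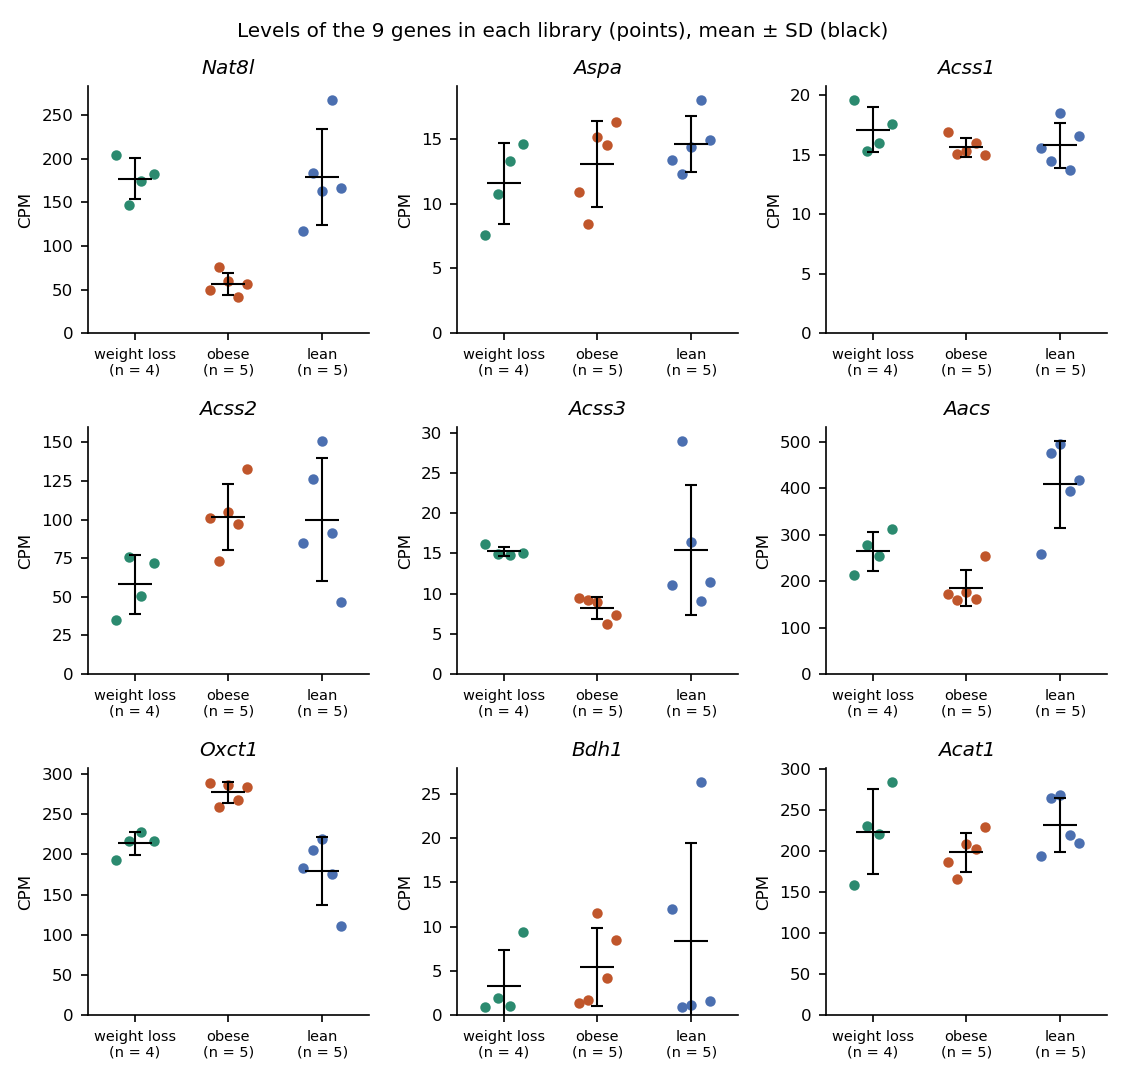
Level of each of the 9 genes in CPM (vertical axis, from 0) in weight loss (n = 4), obese (n = 5) and lean (n = 5) libraries. Each coloured point is 1 library and the black bar and whiskers are the mean ± SD, cut off at 0 for Bdh1. The obese Nat8l values lie at 41.8 to 75.3 CPM, below every weight loss and every lean value.

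The promoters of Aacs and Oxct1 are shown, the pair of called genes whose obese and lean values did not overlap. Acss3 was also called, but its obese and lean values overlapped. The share of all genes without such overlap was not counted, so its lack served just to choose what to print. Each line gives the 250 bases before the transcription start in the RefSeq table for GRCm38.p6, 5′ to 3′ on the gene's strand, at chr5:125475623-125475872 (+) for Aacs and chr15:4026178-4026427 (+) for Oxct1.
Aacs: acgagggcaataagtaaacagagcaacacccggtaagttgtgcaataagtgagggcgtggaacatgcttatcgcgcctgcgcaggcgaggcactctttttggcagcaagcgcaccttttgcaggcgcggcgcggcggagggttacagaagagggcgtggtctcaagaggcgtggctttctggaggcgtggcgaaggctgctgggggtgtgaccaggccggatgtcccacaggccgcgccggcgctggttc
Oxct1: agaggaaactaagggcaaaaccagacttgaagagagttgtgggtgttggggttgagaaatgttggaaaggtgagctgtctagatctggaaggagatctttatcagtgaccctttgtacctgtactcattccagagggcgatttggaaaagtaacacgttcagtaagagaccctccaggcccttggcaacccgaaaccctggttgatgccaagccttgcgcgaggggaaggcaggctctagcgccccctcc
Of the 9 genes, 6 had an entry in that table of 32851 promoters, Bdh1 with a pair of starts, while Nat8l, Acss3 and Acat1 had none. Windows of 300 bases, 250 before the start and 50 after it, were searched on both strands for the E-box CACGTG, for the CCAAT box, for the GC box GGGCGG, for the TATA box TATAAA and for the nuclear receptor half-site AGGTCA. Among all promoters in the table, 7.15% held the E-box, 37.4% the CCAAT box, 35.7% the GC box, 13.6% the TATA box and 16.3% the half-site. The Aacs and Oxct1 windows held none of these letter strings, and their GC content was 63.3% and 55.3%, beside a median of 52.7% over the table. The Acss2 window held the GC box at 5 places and the CCAAT box at 1, the Acss1 window held the GC box at 2 places, and that of the second Bdh1 start held it at 1 place. The Aspa window, at 39.0% GC, held the TATA box at 3 places and the CCAAT box at 1. A match or its lack describes these letters and not a bound factor.

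Nat8l (Entrez ID 269642, chromosome 5, 33995984 to 34005916, plus strand, GRCm38) encodes N-acetylaspartate synthetase. Its levels in the weight loss libraries were 204, 147, 175 and 183 CPM. In the obese libraries they were 49.8, 75.3, 59.9, 41.8 and 56.3 CPM. In the lean libraries they were 117, 183, 163, 268 and 166 CPM. Every obese library was below every weight loss and every lean library, and the weight loss values all lay within the lean range. The mean was 177 ± 23.5 CPM in weight loss (SD, n = 4), 56.6 ± 12.5 CPM in obese (SD, n = 5) and 179.5 ± 55.2 CPM in lean fat (SD, n = 5). The ratio of means was 0.315 for obese over lean, 3.13 for weight loss over obese and 0.988 for weight loss over lean. As fitted log2 values these were -1.66, 1.65 and -0.02. These are the values that led to the choice of Nat8l and are a description. Across all alternatives, each library left out in turn included, the log2 value ran from -1.83 to -1.51 for obese over lean and from 1.56 to 1.77 for weight loss over obese. Without the 4 libraries rich in epididymal transcripts, which leaves obese replicates 1 and 3, it was -1.83 and 1.69.

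Aspa (Entrez ID 11484, chromosome 11, 73304987 to 73326876, minus strand) encodes aspartoacylase, which releases acetate from N-acetylaspartate. It stood at 7.57, 10.8, 13.3 and 14.6 CPM in weight loss libraries, 10.9, 8.41, 15.2, 14.6 and 16.3 CPM in obese libraries and 13.4, 12.3, 14.4, 18.0 and 15.0 CPM in lean libraries. All 3 groups overlapped. The log2 fold change was -0.16 ± 0.21 in obese against lean fat (adjusted p = 0.698, edgeR), with bounds of 2 standard errors at -0.58 and 0.26. It was -0.17 ± 0.23 in weight loss against obese fat (adjusted p = 0.805) and -0.34 ± 0.23 in weight loss against lean fat (adjusted p = 0.595). Per kilobase of exon, Nat8l averaged 26.6, 8.49 and 26.9 CPM in weight loss, obese and lean fat, against 1.94, 2.20 and 2.46 CPM for Aspa. On that scale the synthesising gene was the more abundant of the pair in each group.

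The acetyl-CoA synthetases came next. Acss1 (Entrez ID 68738, chromosome 2, 150618111 to 150668240, minus strand) encodes a mitochondrial form. Its 14 values lay between 13.7 and 19.6 CPM, with means of 17.1 ± 1.91 CPM in weight loss (n = 4), 15.6 ± 0.792 CPM in obese (n = 5) and 15.8 ± 1.87 CPM in lean fat (n = 5). The groups overlapped in each comparison. The log2 fold change was -0.01 ± 0.12 in obese against lean fat (bounds -0.25 and 0.22, adjusted p = 0.962, edgeR), the narrowest interval among the 8 genes tested. Values of 0.13 ± 0.13 in weight loss against obese fat and 0.12 ± 0.13 in weight loss against lean fat were likewise not called.

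Acss2 (Entrez ID 60525, chromosome 2, 155518043 to 155562743, plus strand) encodes the cytosolic and nuclear form, which feeds lipid synthesis and histone acetylation. Its levels were 34.8, 75.5, 50.4 and 71.6 CPM in weight loss libraries, 101, 72.9, 105, 96.9 and 133 CPM in obese libraries and 85.1, 126, 151, 91.2 and 47.0 CPM in lean libraries. The weight loss values were mostly the lowest, but they overlapped the obese values through obese replicate 2 and the lean values through lean replicate 5. The median was 61.0 CPM in weight loss, 101 CPM in obese and 91.2 CPM in lean fat, with an SD of 19.0, 21.4 and 39.9 CPM in these groups. The log2 fold change in weight loss against obese fat was -0.81 ± 0.30, with an unadjusted p of 0.0166 and an edgeR adjusted p of 0.221. Against lean fat it was -0.78 ± 0.30, with an unadjusted p of 0.0193 and an adjusted p of 0.342. Neither passed the threshold. In obese against lean fat the value was 0.02 ± 0.28, with bounds of -0.53 and 0.58.

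Acss3 (Entrez ID 380660, chromosome 10, 106933514 to 107123761, minus strand) encodes a further mitochondrial short-chain acyl-CoA synthetase. Its levels were 16.1, 14.9, 14.8 and 15.1 CPM in weight loss libraries, 9.41, 9.17, 8.90, 6.23 and 7.34 CPM in obese libraries and 11.1, 28.9, 16.4, 9.12 and 11.4 CPM in lean libraries. All weight loss values were above all obese values, while lean replicate 4 lay within the obese range and lean replicate 2 far above the rest. Acss3 fell in obese against lean fat, with a log2 value of -0.91 ± 0.26 (adjusted p = 0.0432, edgeR). That call was kept in 9 of 24 alternatives. It was lost without any 1 of the 5 obese libraries, without weight loss replicates 1, 2 or 3 and without lean replicates 2 or 3, where the adjusted p ran from 0.0514 to 0.102. Without lean replicate 2 the log2 value was -0.57, and without the 4 libraries rich in epididymal transcripts it was -0.85 with an adjusted p of 0.375. In weight loss against obese fat the log2 fold change was 0.89 ± 0.28 with an adjusted p of 0.138, and it passed when only those groups were fitted (0.0233) or without lean replicate 2 (0.0319). The weight loss and lean means, 15.2 ± 0.581 and 15.4 ± 8.04 CPM, differed by a log2 value of -0.02 ± 0.28.

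**Figure D2:**
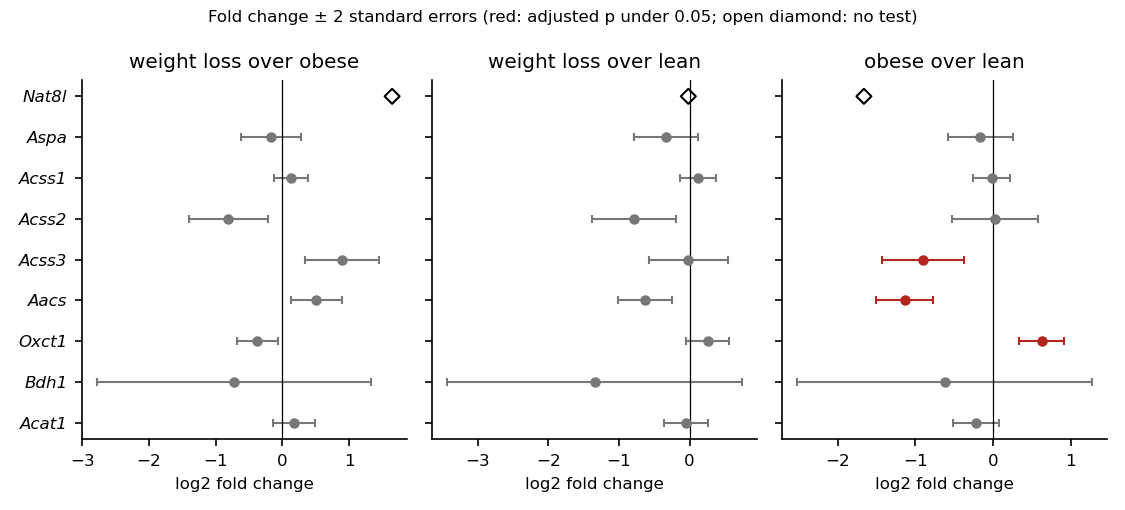
Log2 fold change of each gene (horizontal axis) in weight loss over obese, weight loss over lean and obese over lean fat, with whiskers of 2 standard errors. Red marks an adjusted p under 0.05 and the open diamond marks Nat8l, which was not tested. Red points appear for Acss3, Aacs and Oxct1 in obese over lean fat, at -0.91, -1.14 and 0.63.

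Among the ketone body genes, Aacs and Oxct1 changed in opposite directions in obese against lean fat. Aacs (Entrez ID 78894, chromosome 5, 125475873 to 125517405, plus strand) encodes acetoacetyl-CoA synthetase, the cytosolic enzyme that routes acetoacetate into lipid synthesis. Its levels were 214, 277, 253 and 312 CPM in weight loss libraries, 172, 160.4, 175, 162 and 255 CPM in obese libraries and 258, 475, 496, 394 and 417 CPM in lean libraries. Each obese library was below each lean library, though obese replicate 5 came close to lean replicate 1, and the weight loss values overlapped both groups. Aacs fell in obese against lean fat to 185 ± 39.7 CPM, against 408 ± 93.5 CPM (SD, n = 5 each). The fold was 0.453 and the log2 value -1.14 ± 0.18 (adjusted p = 0.00158, edgeR), and the call was kept in 24 of 24 alternatives. The weight loss mean of 264 ± 41.3 CPM lay between the others. It was 0.51 ± 0.19 above obese fat on the log2 scale (unadjusted p = 0.016, adjusted p = 0.218). Against lean fat it was -0.63 ± 0.19 (unadjusted p = 0.00513, adjusted p = 0.235). Neither passed the threshold.

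Oxct1 (Entrez ID 67041, chromosome 15, 4026428 to 4155344, plus strand) encodes the mitochondrial CoA transferase that commits acetoacetate to oxidation. Its levels were 193, 217, 228 and 217 CPM in weight loss libraries, 289, 259, 286, 267 and 284 CPM in obese libraries and 184, 206, 219.6, 176 and 110.4 CPM in lean libraries. The obese values were above all weight loss and all lean values, and lean replicate 5 was the lowest of all. Oxct1 rose in obese against lean fat to 277 ± 13.0 CPM, against 179 ± 42.1 CPM (SD, n = 5 each). This was a 1.55-fold difference, a log2 value of 0.63 ± 0.15 (adjusted p = 0.015, edgeR). The call was kept in 23 of 24 alternatives, a count that leaves out the stricter threshold of 0.01, at which it was lost. Without the 4 libraries rich in epididymal transcripts the log2 value was 0.69 with an adjusted p of 0.201. In weight loss against obese fat the log2 fold change was -0.37 ± 0.15 (unadjusted p = 0.0283, adjusted p = 0.278), although those groups did not overlap. The macrophage markers also differed between obese and lean fat, 6 of 10 being called higher and 0 lower. Among all genes 5.86% were called higher and 3.85% lower. Also called higher were 3 of 8 progenitor, 2 of 6 thermogenic, 1 of 6 mesothelial and 1 of 20 epididymal markers tested. Of 10 adipocyte markers, 1 was called higher and 2 lower. In weight loss against obese fat 0 of the 10 macrophage markers were called, where just 1.62% of all genes were. The part of these cell types in the Oxct1 and Aacs differences was not tested.

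Acat1 (Entrez ID 110446, chromosome 9, 53580522 to 53610350, minus strand) encodes the mitochondrial thiolase that splits acetoacetyl-CoA into acetyl-CoA, the last step of ketone body oxidation. Its levels ran from 158 to 284 CPM in weight loss, 166 to 229 CPM in obese and 194 to 268 CPM in lean libraries, with overlap throughout. The log2 fold change was -0.22 ± 0.15 in obese against lean fat (adjusted p = 0.397, edgeR), 0.17 ± 0.16 in weight loss against obese fat (adjusted p = 0.702) and -0.05 ± 0.16 in weight loss against lean fat (adjusted p = 0.933). Per kilobase of exon, the ketone genes Aacs, Acat1 and Oxct1 were the 3 most abundant of the 9 in each group. In CPM without that scaling, Nat8l at 179.5 was level with Oxct1 at 179.1 in lean fat. In obese fat Oxct1 averaged 74.9, Acat1 52.7 and Aacs 48.0 CPM per kilobase. In lean fat Aacs averaged 106, Acat1 61.5 and Oxct1 48.4 CPM per kilobase, so Aacs and Oxct1 changed places between the groups. In weight loss fat Aacs averaged 68.5, Acat1 59.4 and Oxct1 57.7 CPM per kilobase. The weight loss order was that of lean fat, and differences between these genes were not tested.

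Bdh1 (Entrez ID 71911, chromosome 16, 31422297 to 31458901, plus strand) encodes the mitochondrial dehydrogenase that interconverts 3-hydroxybutyrate and acetoacetate. Per kilobase of exon it averaged 0.847, 1.40 and 2.15 CPM in weight loss, obese and lean fat, the lowest of the 9 genes in weight loss fat, while Acss3 was lower in obese fat at 1.14 and in lean fat at 2.14 CPM. Its levels were 0.903, 1.93, 0.994 and 9.35 CPM in weight loss libraries, 1.37, 1.68, 11.6, 4.14 and 8.47 CPM in obese libraries and 12.0, 0.851, 1.13, 26.3 and 1.56 CPM in lean libraries. High and low libraries occurred in each group, and all groups overlapped. The mean was 3.29 ± 4.06 CPM in weight loss, 5.44 ± 4.44 CPM in obese and 8.38 ± 11.1 CPM in lean fat. The log2 fold change was -0.62 ± 0.95 in obese against lean fat (adjusted p = 0.744, edgeR), -0.72 ± 1.03 in weight loss against obese fat and -1.35 ± 1.05 in weight loss against lean fat. The 6 libraries above 4 CPM, weight loss replicate 4, obese replicates 3, 4 and 5 and lean replicates 1 and 4, also carried the epididymal transcript Crisp1. Of the 20 epididymal markers tested, Crisp1 had the highest correlation with Bdh1. Neither Crisp1 nor the limit of 4 CPM was set beforehand. Crisp1 stood at 55.3 CPM in weight loss replicate 4, at 88.6, 523 and 145.5 CPM in those obese libraries and at 306 and 541 CPM in those lean libraries. Obese replicate 2, with the highest epididymal sum of 9160 CPM, had 44.0 CPM of Crisp1 and 1.68 CPM of Bdh1. Over all 14 libraries, the Pearson correlation of Bdh1 with the epididymal sum on the log2 scale was 0.649, and 0.682 with group means subtracted, given as a description. Of 20 epididymal markers tested, 3 had a Pearson correlation with Bdh1 over 0.8 across the 14 libraries, Crisp1 at 0.844, Spink8 at 0.843 and Defb42 at 0.818. The other 17 were under 0.5. With the epididymal level as a covariate, the Bdh1 log2 fold change in weight loss against obese fat was 0.52 and was not called. That covariate, a mean of log2 CPM and not the sum, was just -0.20 in lean replicate 4, where Bdh1 and Crisp1 were highest.

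**Figure D3:**
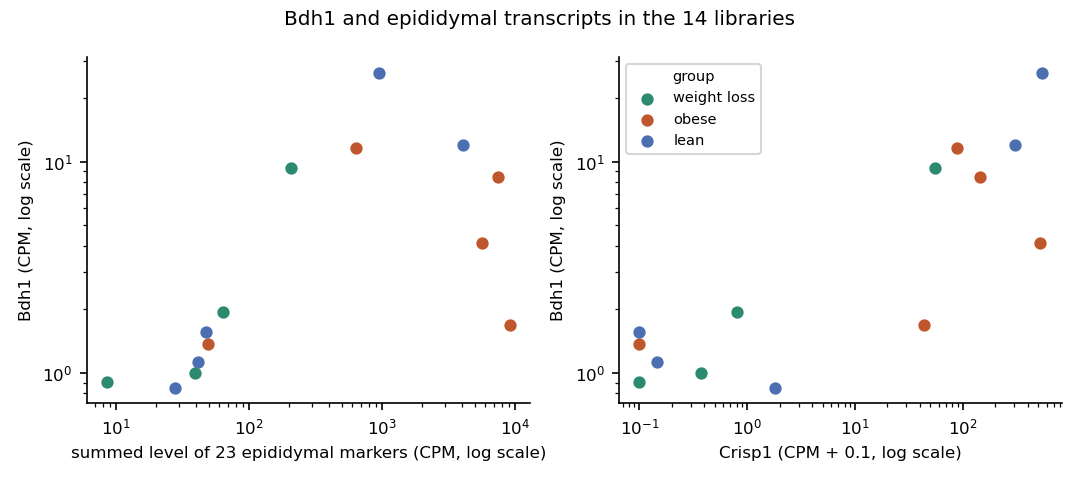
Bdh1 in CPM (vertical, log scale) against the summed level of 23 epididymal markers (left, log scale) and against Crisp1 plus 0.1 CPM (right, log scale) in the 14 libraries, coloured by group. Obese replicate 2 has the highest sum, 9160 CPM, with a Bdh1 level of 1.68 CPM, while the libraries with the most Crisp1 include lean replicate 4, which has the highest Bdh1 level of 26.3 CPM.

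Genes around these enzymes were taken as 5 lists holding 83 genes, of which 66 were tested. In obese against lean fat 3 were called higher and 8 lower, where 5.86% and 3.85% of all genes were. Weight loss against obese fat had 5 called higher and 0 lower, where 0.736% and 0.881% of all genes were. Against lean fat, edgeR called 0 of the 66 in weight loss fat, where 0.0329% of all genes were called. There 9 had an unadjusted p under 0.05, a share not given for all genes, while DESeq2 called 1 and limma-voom 0.

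In the list of N-acetylaspartate and aspartate supply and use, 15 of 17 genes were tested. In obese against lean fat 1 was called higher and 2 lower, where 5.86% and 3.85% of all genes were. Weight loss against obese fat had 2 called higher, where 0.736% of all genes were. Slc1a3, a plasma membrane transporter of glutamate and aspartate, had 254, 225.5, 317 and 241 CPM in weight loss libraries, 118, 102, 104, 86.0 and 106 CPM in obese libraries and 175, 342, 382, 212 and 214 CPM in lean libraries. Every obese value was below every weight loss and every lean value. Slc1a3 fell in obese against lean fat with a log2 value of -1.36 ± 0.20 (adjusted p = 0.00078, edgeR), a call kept in 24 of 24 alternatives. It rose in weight loss against obese fat by 1.33 ± 0.20 (adjusted p = 0.00349). This rise was lost without the 4 libraries rich in epididymal transcripts and with the epididymal covariate, with adjusted p up to 0.19. Asns, which makes asparagine from aspartate, averaged 139, 92.1 and 147 CPM in weight loss, obese and lean fat. It fell in obese against lean fat (log2 -0.68 ± 0.13, adjusted p = 0.00475) and rose in weight loss against obese fat by 0.59 ± 0.13 (adjusted p = 0.0408). The groups of both comparisons did not overlap. The second call was lost without any 1 of the 5 obese libraries, without weight loss replicates 2, 3 or 4 and without lean replicates 2 or 4, with adjusted p up to 0.111. The same call was also lost with no filter and with a block for the replicate number. Over all alternatives its adjusted p reached 0.733. Naalad2, a peptidase of the family that cleaves N-acetylaspartylglutamate, rose in obese against lean fat to 14.4 ± 2.62 CPM, against 7.84 ± 1.89 CPM (log2 0.87 ± 0.26, adjusted p = 0.0467). That call was lost without obese replicates 1, 2, 3 or 4, weight loss replicates 2 or 3, or lean replicates 1, 2, 4 or 5, with adjusted p up to 0.117. The Naalad2 call was also lost with no filter and with limma-voom. Over all alternatives its adjusted p reached 0.255. Naaladl1 and Naaladl2 did not pass the filter. The median log2 fold change of the list was 0.19 in obese against lean fat and -0.04 in weight loss against obese fat.

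Among the 8 NAT8 family relatives of Nat8l, 3 were tested and edgeR called 0 in any comparison. Of all genes, 9.71% were called in obese against lean, 1.62% in weight loss against obese and 0.0329% in weight loss against lean fat. In obese against lean fat 1 had an unadjusted p under 0.05, and DESeq2 called 1 lower and limma-voom 0. Nat8f1 was the most abundant of them, at 6.47 ± 2.48 CPM in weight loss, 3.63 ± 0.729 CPM in obese and 6.00 ± 0.871 CPM in lean fat. Its obese and lean values did not overlap, and the log2 value was -0.72 ± 0.24 (adjusted p = 0.0709). Nat8 and Nat8f4 averaged 0.656 and 3.21 CPM in weight loss fat, 0.208 and 2.67 CPM in obese fat and 0.353 and 4.47 CPM in lean fat. Nat8f2, Nat8f3, Nat8f5, Nat8f6 and Nat8f7 did not pass the filter.

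In the list of acetate and acetyl-CoA supply and transport, 17 of 21 genes were tested. In obese against lean fat 1 was called higher and 3 lower, where 5.86% and 3.85% of all genes were. Weight loss against obese fat had 2 called higher, where 0.736% of all genes were. Those lower in obese fat were Acsm3 and Acsm5, which encode mitochondrial medium-chain acyl-CoA synthetases, and Aldh2. Aldh2 is the mitochondrial dehydrogenase that turns acetaldehyde into acetate. Acsm3 had 7.74, 10.3, 12.7 and 12.4 CPM in weight loss libraries, 3.33, 2.61, 4.07, 2.67 and 2.05 CPM in obese libraries and 10.3, 18.4, 21.6, 5.83 and 5.89 CPM in lean libraries. All obese values were below the others. Acsm3 fell in obese against lean fat with a log2 value of -2.08 ± 0.37 (adjusted p = 0.00308, edgeR) and rose in weight loss against obese fat by 1.88 ± 0.38 (adjusted p = 0.0202). The rise was lost without obese replicates 2, 4 or 5 or weight loss replicates 3 or 4, with adjusted p up to 0.063. It was also lost without the 4 libraries rich in epididymal transcripts and with the epididymal covariate. Over all alternatives the adjusted p of this rise reached 0.677. Acsm5 averaged 19.3 ± 1.63 CPM in weight loss, 10.1 ± 2.15 CPM in obese and 19.1 ± 3.15 CPM in lean fat. It fell in obese against lean fat (log2 -0.93 ± 0.16, adjusted p = 0.00274) and rose by 0.94 ± 0.17 in weight loss against obese fat (adjusted p = 0.00974), with no overlap in either comparison. The rise of Acsm5 was lost in the same 2 epididymal fits, with adjusted p up to 0.493. Aldh2, the most abundant of the list, fell to 683 ± 32.0 CPM in obese fat, against 1186 ± 189.6 CPM in lean fat (log2 -0.80 ± 0.16, adjusted p = 0.00581). Its weight loss values of 693, 950.4, 687 and 1220 CPM overlapped both groups. Acot9, a mitochondrial acyl-CoA thioesterase, rose to 75.1 CPM in obese fat, against 43.5 CPM in lean fat (log2 0.79 ± 0.17, adjusted p = 0.00988). Slc13a5, Acot12, Acsm1 and Ffar3 did not pass the filter, and Acsm1 had no count in any of the 14 libraries. The list's median log2 fold change was -0.27 in obese against lean fat and 0.12 in weight loss against obese fat.

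**Figure D4:**
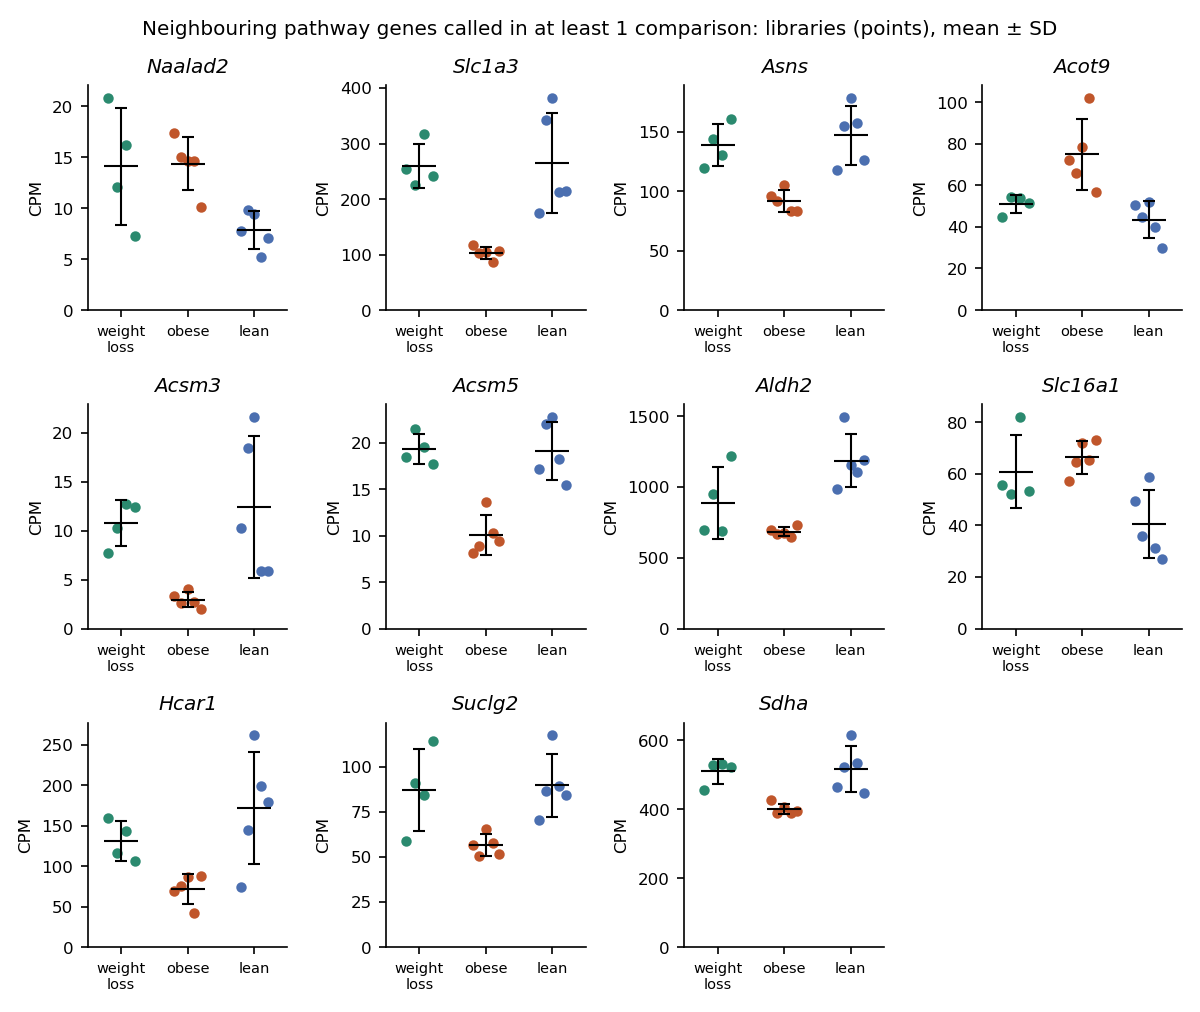
Level in CPM (vertical axis, from 0) of 11 genes from the surrounding pathways called in at least 1 comparison, in weight loss (n = 4), obese (n = 5) and lean (n = 5) libraries. Points are libraries and black marks the mean ± SD. The obese values of Slc1a3, 86.0 to 118 CPM, lie below all others.

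In the list of ketone body synthesis, transport and sensing, 15 of 21 genes were tested. In obese against lean fat 1 was called higher and 1 lower, where 5.86% and 3.85% of all genes were. Slc16a1, a monocarboxylate transporter that carries lactate and ketone bodies, rose to 66.4 CPM in obese fat, against 40.5 CPM in lean fat (log2 0.71 ± 0.20, adjusted p = 0.0353, edgeR). That call was lost without obese replicates 2, 3, 4 or 5 or lean replicates 2, 4 or 5, with adjusted p up to 0.0891. Obese and lean values of Slc16a1 overlapped, lean replicate 3 at 58.6 CPM being above obese replicate 1 at 57.0 CPM. Its weight loss mean was 60.9 CPM. Hcar1, the lactate receptor of adipocytes, fell to 71.9 CPM in obese fat, against 172 CPM in lean fat (log2 -1.26 ± 0.28, adjusted p = 0.0116). Its obese and lean values overlapped, with lean replicate 1 at 74.5 CPM inside the obese range of 41.6 to 87.3 CPM. Hcar2, the receptor of 3-hydroxybutyrate, averaged 24.1, 19.7 and 30.2 CPM in weight loss, obese and lean fat and was not called. Bsg, the chaperone of monocarboxylate transporters, was the most abundant of the list, at 486, 488 and 501 CPM. Hmgcll1, Oxct2a, Oxct2b, Slc5a12, Slc27a5 and Fgf21 did not pass the filter. The median log2 fold change of the list was -0.25 in obese against lean fat and 0.42 in weight loss against obese fat.

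All 16 genes of the TCA cycle list were tested, and 2 were called lower in obese against lean fat, where 3.85% of all genes were. Suclg2, a subunit of GTP-forming succinyl-CoA synthetase, fell to 56.6 CPM in obese fat, against 89.7 CPM in lean fat (log2 -0.67 ± 0.17, adjusted p = 0.0223, edgeR), a call lost without obese replicate 2 (adjusted p = 0.0575). Sdha, the flavoprotein of succinate dehydrogenase, fell to 401 CPM in obese fat, against 516 CPM in lean fat (log2 -0.36 ± 0.10, adjusted p = 0.0307). The Sdha call was lost without obese replicates 2, 3 or 4 or lean replicates 2, 3 or 4, with adjusted p up to 0.0769. Of the 16, edgeR called 0 in weight loss against obese fat, where 1.62% of all genes were called. There 2 had an unadjusted p under 0.05, and DESeq2 called 2 and limma-voom 0. Cs, citrate synthase, averaged 441 CPM in weight loss, 441 CPM in obese and 583 CPM in lean fat and was not called. The list's median log2 fold change was -0.25 in obese against lean fat and 0.07 in weight loss against obese fat. Without the 4 libraries rich in epididymal transcripts, Slc1a3 and Hcar1 were the genes of these lists still called in obese against lean fat, and none was called in weight loss against obese fat. With the epididymal level as a covariate, none was called in weight loss against obese fat either. In obese against lean fat that fit lost the calls of Hcar1 (adjusted p = 0.14), Naalad2, Slc16a1, Suclg2 and Sdha.

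The genes most like Nat8l were found by the Pearson correlation of log2 CPM over the 14 libraries, given here as a description. They were Acad10 at 0.950, Plppr3 at 0.948, Mat2a at 0.941, Mtus1 at 0.929, Slc27a1 at 0.928 and Ces1f at 0.925, and 19 genes in all reached 0.9. Acad10, an acyl-CoA dehydrogenase family member, averaged 30.4, 17.3 and 30.0 CPM in weight loss, obese and lean fat. Mat2a, which makes S-adenosylmethionine, averaged 388, 261 and 349 CPM, and Slc27a1, a fatty acid transport protein, 1113, 581 and 1325 CPM in the same groups. All 6 had obese values below all weight loss and all lean values, as Nat8l did. That separation largely follows from picking genes by their likeness to Nat8l over these same libraries. The share of all genes separated in this way was not counted. With the mean of each group subtracted, the closest were Ephx2 at 0.816, Orai1 at 0.813, Stk40 at 0.808, Cxcl9 at 0.805, 9930014A18Rik at 0.797 and Zmat3 at 0.789. No gene is on both lists of 6, and 0 genes reached 0.9 within groups.

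Among the 9 genes, Nat8l correlated with Aacs at 0.74, with Acss3 at 0.70 and with Oxct1 at -0.69 over the 14 libraries. With group means subtracted these values were 0.24, 0.08 and -0.07. Acss2 was closest to Me1, cytosolic malic enzyme, at 0.967 over all libraries and 0.957 with group means subtracted, and Acly, ATP citrate lyase, stood at 0.887. Aacs was closest to Nadk at 0.958, Cebpa at 0.956 and Cyp2e1 at 0.949, and Oxct1 to Pigk at 0.947, Ostm1 at 0.940 and Eif2s1 at 0.937. Acat1 was closest to Coq6 at 0.929, Gde1 at 0.927 and Atp5c1 at 0.915, and Acss3 to Vnn3 at 0.897, Sgpl1 at 0.891 and Gsn at 0.880. Aspa and Acss1 had no gene at 0.9, their closest being Nrn1 at 0.880 and Ifi202b at 0.824. Bdh1 was closest to Wif1 at 0.977, Klk1b8 at 0.973 and Anxa13 at 0.972. Anxa13 stood at 15.1 CPM in weight loss replicate 4 and at most 0.407 CPM in the other weight loss libraries, and at 83.6 CPM in lean replicate 4, the same libraries in which Bdh1 was highest in these groups.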

How the data were processed

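Poly(A) RNA of mouse perigonadal fat was sequenced, per the labels, with mm10 named in the submitters' processing notes. How reads were aligned, assigned to genes and matched to strands is not given in the sources used here. The authors deposited 1 table of expected counts, not normalized, for 35794 Entrez IDs, with 34.7% of values not whole; these were rounded. Symbols came from RefSeq for 32919 IDs and GENCODE M21 for 24, and exon lengths from GENCODE M21. An exon length was the union of all annotated exons of a gene over its transcripts, so values per kilobase depend on that choice. Weight loss replicate 5, under a minimum of 1000000 counts, was left out.

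Genes were kept by filterByExpr by group. With TMM factors, 1 model with a coefficient for each group was fitted in edgeR 4.0.16 (R 4.3.3, glmQLFit, glmQLFTest, two-sided), and p-values were adjusted over all 15208 genes. The standard error was taken as |log2 fold change| divided by the root of the F statistic. Depth limits genes with few counts, and errors cover the spread between libraries. For Bdh1 that spread was wide, with 12 counts in lean replicate 2 and 393 in lean replicate 4. The totals of those libraries were 15598146 and 14945927 counts. The fit was tested on simulated data.

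The genes, lists and alternatives were chosen with earlier results of these data known. Text names all 9 genes, every called gene of each list but 1 that is not reported here, genes that failed the filter, the most abundant of a list and the closest genes by correlation (6 for Nat8l, 3 for others). Nat8f4, Nat8, Hcar2, Cs and Anxa13's library values were named after their values were seen. So were Crisp1, Spink8 and Defb42, picked from the epididymal markers by their correlation with Bdh1. Alternatives were other scalings and filters, DESeq2 1.42.0, limma-voom (limma 3.58.1), a fit of just the groups compared, a block for the replicate number, a stricter threshold of 0.01, each library left out, and the epididymal level as a covariate or its 4 richest libraries left out. Tables and plots used Python 3.11.15, pandas 2.3.3 and matplotlib 3.10.9.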

Additional observations from a re-analysis of the deposited data

Results flagged for a closer look

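In 27 sets of libraries, each of the 9 genes in each group, the library farthest from the rest was compared with the spread of its group, a measure by which chance picks about 1 in 20 groups. Aacs in obese replicate 5 stood at 255 CPM, where the next highest obese library had 175 CPM, a gap that was 0.841 of the range of the group. Bdh1 in weight loss replicate 4 stood at 9.35 CPM, where the next highest weight loss library had 1.93 CPM, a gap that was 0.878 of the range. Weight loss replicate 4 also had more Crisp1, 55.3 CPM, than the other weight loss libraries, which had at most 0.712 CPM.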

How the results depend on the processing

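Of 24 alternatives, not counting the stricter threshold of 0.01, the Aacs call in obese against lean fat was kept in 24. The Oxct1 call was kept in 23 and the Acss3 call in 9. At an adjusted p of 0.01 the Aacs call was kept and the Oxct1 and Acss3 calls were lost. Genes called numbered 1477 in obese against lean, 246 in weight loss against obese and 5 in weight loss against lean fat. In the same order, DESeq2 called 2260, 691 and 243, and an adjusted p of 0.01 left 463, 84 and 0. Leaving out the 4 libraries rich in epididymal transcripts, which leaves 2 obese libraries, gave 125, 20 and 0, and their level as a covariate gave 735, 31 and 1. The last count was 1 with limma-voom and 0 with only the groups compared. With each library left out in turn the counts ran from 849 to 1673, from 141 to 265 and from 0 to 130, the 130 without weight loss replicate 4. Of the 8 genes chosen by function, 1 was called in obese against lean fat without those 4 libraries or at an adjusted p of 0.01, and 1 in weight loss against obese fat with only the groups compared. With each library left out these counts ran from 2 to 3 and from 0 to 1.

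The replicate number as a block gave 1618, 172 and 2 genes. Same-numbered libraries did not deviate together, with correlations from -0.553 to 0.399 over 13 pairs, 4 of them over 0.1, and 3 of 14 libraries were closest to one of their own number, so the numbers were not taken as a pairing.

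The sign of some uncalled log2 values turned. These were small but for Bdh1, at -0.62 in obese against lean and -0.72 in weight loss against obese fat in the main fit. Acss1 in obese against lean fat was 0.024 without the 4 libraries and 0.043 with the covariate. Acss2 there was -0.00106 with the filter on CPM and -0.011 without the 4 libraries. Acss3 in weight loss against lean fat was 0.034 with library size only, 0.12 with limma-voom and 0.037 with the block. Bdh1 in obese against lean fat was 0.072 with limma-voom and 0.18 with the block, and in weight loss against obese fat 0.52 with the covariate. With each library left out, these values ran from -0.084 to 0.050 for Acss1, -0.16 to 0.22 for Acss2, -0.21 to 0.31 for Acss3 and -1.09 to 0.46 for Bdh1 in obese against lean fat, and Acat1 in weight loss against lean fat ran from -0.22 to 0.085. The cause was not tested. Bulk counts limit what low and uneven genes such as Bdh1 can show.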
